A study of Homo sapiens with 30 samples.

Results

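The segment described here is the proximal long arm of human chromosome 20, positions 29400000 to 36000000 of the hg19 build, 6.6 Mb that hold the band 20q11.21. Its members are every deposited region whose middle lies in it, 1064 regions of 112903 in the series. Of these, 830 of 89929 came from the 10 lists of regions that differed between HNF6 knockout and control cells, and 234 of 22974 came from the 9 clusters of wild-type regions. The rest of chromosome 20 held 2754 listed regions and 682 cluster regions and served as the background. Members were chosen by position, and the segment itself was selected on the direction and log2 ratio of its listed regions, so every value below is a description and no test was run.

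The band 20q11.21 is among the segments most often gained when human pluripotent stem cells are kept in culture. It carries ID1, an inhibitor of basic helix-loop-helix transcription factors, BCL2L1, which encodes the anti-apoptotic protein BCL-XL, and DNMT3B, a de novo DNA methyltransferase abundant in pluripotent cells. In RefSeq's gene order on GRCh38.p14, 19 protein-coding genes lie between ID1 and DNMT3B. They include TPX2 and KIF3B, which act on the mitotic spindle and in microtubule transport, POFUT1, which adds fucose to Notch receptors, and ASXL1, a chromatin regulator. No annotation of the files' own build was used, so regions are given by position and none is assigned to a gene.

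Chromatin accessibility was profiled by ATAC-seq, a method that tags open DNA with a transposase, in HUES8, an established human embryonic stem cell line. HNF6 knockout cells, which lack the homeodomain factor HNF6 (ONECUT1), and control cells, labelled wild type, were taken through in vitro pancreatic differentiation. Each genotype was sampled at 5 stages with 3 samples per group, 30 in all: ESC, the undifferentiated cells, then DE, the definitive endoderm, GT, the primitive gut tube, PE, which is endoderm of the pancreas, and PP, its progenitors. Neither the origin of a group's 3 samples, from separate cultures or from a shared one, nor the clonality of the knockout line is stated, so the spread between samples may be technical. In such bulk samples, fewer cells with an open region and less signal per cell cannot be told apart.

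Each listed region carries 3 knockout and 3 control values, whole numbers whose scaling is not stated, and each list holds only regions with an authors' -log10 p of at least 5. Small differences are therefore missing from every list. All ratios below are log2 of the knockout mean over the control mean with 1 added to each, so a positive ratio means a higher value in knockout cells. No library totals come with the lists, and the depth of the samples is unknown. Intervals are 95% Wilson intervals and cover counting error only, and neighbouring regions share libraries and chromosome, so they are not independent.

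At ESC most of the segment's listed regions were lower in knockout cells, and at PP nearly all were higher. At ESC 61 regions were higher in the knockout and 170 in control cells, a knockout share of 26.4% (21.1% to 32.4%), against 57.4% over all listed regions of that stage. At DE 79 were higher in the knockout and 46 in control cells, a knockout share of 63.2% (54.5% to 71.1%), against 62.8% over all regions. At GT 95 were higher in the knockout and 10 in control cells, or 90.5% (83.4% to 94.7%), against 73.0%. At PE the knockout was higher in 65 and control in 26, or 71.4% (61.4% to 79.7%), against 43.9%. At PP the knockout was higher in 260 and control in 18, or 93.5% (90.0% to 95.9%), against 88.7%. Read as control shares, the segment had 36.8% at DE against 37.2% over all regions, 9.52% at GT against 27.0%, 28.6% at PE against 56.1% and 6.47% at PP against 11.3%. The DE and PP shares thus lay within 5 percentage points of the share over all regions, while ESC, GT and PE lay further from it.

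On the rest of chromosome 20 the knockout share was 29.7% at ESC, 60.2% at DE and 91.3% at PP, each within the interval of the segment. At GT it was 81.2% and at PE 49.6%, both below the interval of the segment. The other autosomes together had 58.3% at ESC. The low ESC share was uneven along chromosome 20. In the segment it was 5.48% in the step from 30000001 to 31000000, with 4 of 73 regions knockout-higher. It was 16.1% in the step from 31000001 to 32000000. In the next Mb it was 72.0%, with 18 of 25 regions knockout-higher. Low shares also stood near the far end of the chromosome, at 11.1%, 13.0% and 16.7% in the Mb steps from 60000001, 61000001 and 62000001. At PP those steps had 94.3%, 96.2% and 86.8%, so a low ESC share that turned by PP was not particular to the segment. At PE they had 73.7% (of 19 regions), 96.7% and 87.5%, so a high PE knockout share was not particular to it either. Within the segment the control-higher ESC regions were unevenly placed, as the plot of ratios along it shows.

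**Figure D1:**
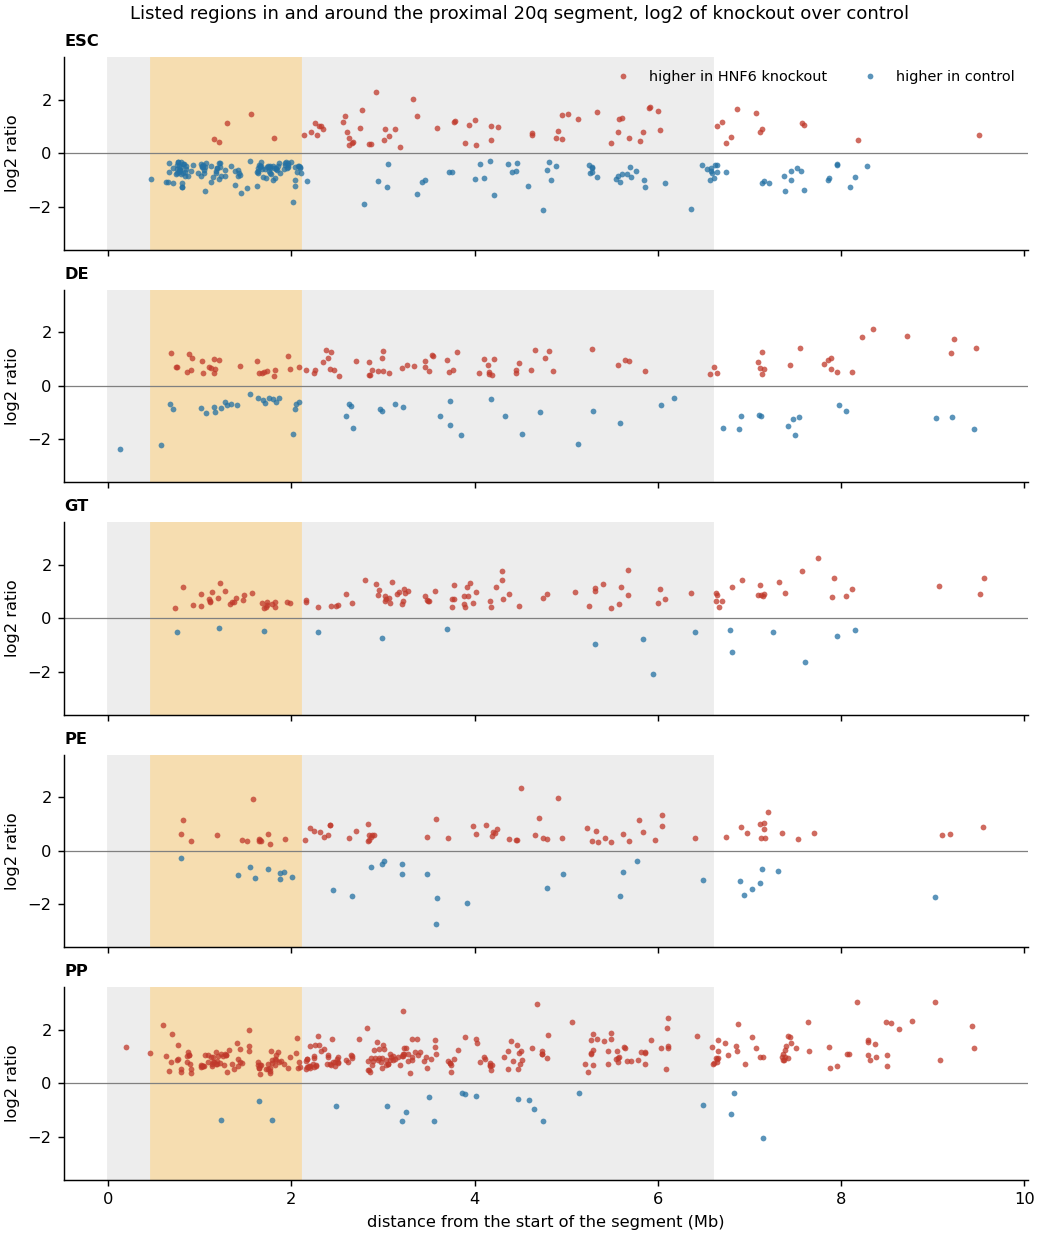
Log2 ratio of knockout over control (vertical axis) of each listed region against its distance from the start of the segment in Mb (horizontal axis), 1 panel per stage. Red points are regions higher in HNF6 knockout and blue points regions higher in control; the grey field is the segment and the orange field the ESC stretch. At ESC the stretch holds 5 red and 121 blue points, and at PP it holds 89 red and 3 blue ones.

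The segment's median log2 ratio was -0.51 at ESC, 0.51 at DE, 0.70 at GT, 0.46 at PE and 0.89 at PP. On the rest of chromosome 20 the medians were -0.61 at ESC, 0.57 at DE, 0.87 at GT, -0.30 at PE and 1.05 at PP. Each median mixes both lists: at ESC the segment's knockout list had a median of 0.90 and its control list -0.64. The segment's ratios were modest, with 23.4% of its ESC regions and 40.6% of its PP regions at 2-fold or more, against 29.5% and 58.1% on the rest of chromosome 20.

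The 6 values behind each region were summarised as the median, over the segment's regions of a stage, of the log2 of each value over the control mean. At ESC the knockout medians were -0.47, -0.42 and -0.58, against control medians of 0.11, -0.04 and -0.05, a difference of -0.49 ± 0.07 (SE, 3 values per genotype). At DE they were 0.73, 0.26 and 0.25 in knockout and -0.05, -0.06 and 0.09 in control, a difference of 0.42 ± 0.16. The first DE knockout value stood apart from the other two there and on the rest of chromosome 20 (0.76, against 0.23 and 0.38), and without it the segment's median ratio at DE was 0.32 in place of 0.51. At GT the knockout medians were 0.66, 0.50 and 0.87 and the control medians -0.03, 0.00 and 0.04, and at PE they were 0.46, 0.45 and 0.37 in knockout and -0.04, 0.08 and -0.05 in control. At PP they were 0.92, 0.79 and 0.80 in knockout and 0.05, -0.02 and -0.04 in control, with a difference of 0.84 ± 0.05. The genotypes did not overlap at any stage, which follows in part from the lists, since each region had to differ to be listed. On the rest of chromosome 20 at PE the genotypes did overlap, at -0.03, -0.20 and -0.18 in knockout and -0.11, 0.05 and 0.03 in control.

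The 3 knockout values lay all above or all below the 3 control values in 179 of the segment's 231 ESC regions (77.5%), close to the 76.1% of all ESC regions. At DE this held for 81 of 125 (64.8%, against 77.5% of all), at GT for 81 of 105 (77.1%, against 82.6%), at PE for 69 of 91 (75.8%, against 77.5%) and at PP for 228 of 278 (82.0%, against 79.8%). DE was the stage at which the segment fell furthest below the share over all regions.

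Control-higher regions at ESC were most frequent near the start of the segment. After the values had been seen, the best run of them along chromosome 20 was found by adding 1 for each control-higher region and taking off 4 for each knockout-higher one. It ran from 29865751 to 31505950, 1640200 bp or 24.9% of the segment, and is called the ESC stretch below. It held 126 ESC regions, 5 higher in knockout cells and 121 higher in control cells, or 96.0% control-higher against 42.6% over all ESC regions. These 121 were 71.2% of all control-higher ESC regions of the segment. In the segment outside the stretch, 56 regions were higher in knockout and 49 in control cells, a knockout share of 53.3% (43.8% to 62.6%).

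The extent of the run depended on the weight of a knockout-higher region. With a weight of 6 or 10 it was the same, and with 3 it began earlier, at 24488301, and kept its end. With 2, the weight tried first, it spread from 23106101 to 62887250, with 512 control-higher regions of 683, and control-higher regions outnumbered the others over chromosome 20 as a whole. With a weight of 1 it covered nearly the whole chromosome, with 577 of 806.

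**Figure D2:**
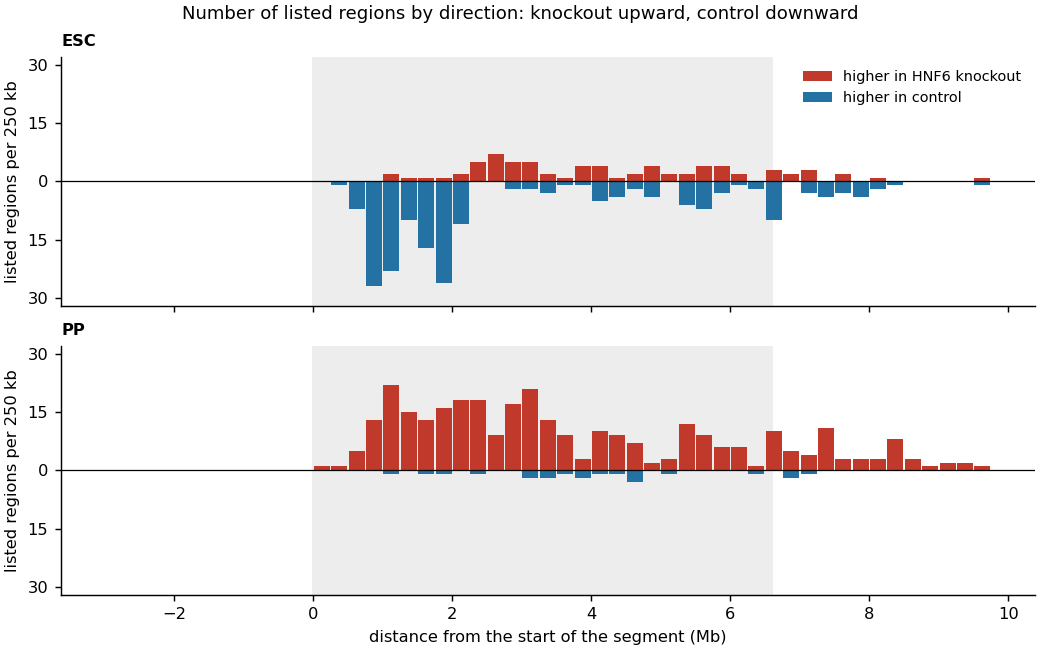
Number of listed regions per 250 kb (vertical axis) against distance from the start of the segment in Mb (horizontal axis) at ESC and PP, with regions higher in HNF6 knockout drawn upward in red and those higher in control downward in blue; the grey field is the segment. At ESC the tallest blue steps, of 27, 23 and 26 regions, fall in the stretch, and at PP the same steps are nearly all red.

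Along the stretch the control-higher regions followed each other at a median distance of 6725 bp, covered 11.2% of its bases, and formed an unbroken run of up to 49. Their log2 ratios ran from -1.82 to -0.28 with a median of -0.59, and 87.6% lay between -1 and -0.3. In 90 of the 121 (74.4%) the genotypes' values did not overlap, close to the 76.1% of all ESC regions. Over all 126 ESC regions of the stretch the knockout medians were -0.57, -0.52 and -0.63 and the control medians 0.12, -0.01 and -0.07. Each knockout median thus lay below each control median. The stretch was chosen as a run of control-higher regions, so this order was fixed by that choice.

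Regions with strong signal gave a narrower range of ratios. The 63 control-higher regions of the stretch with a mean of at least 500 over both genotypes had a median log2 ratio of -0.48, with quartiles of -0.54 and -0.41, which is a knockout level of 0.719 times the control level. The 1826 such regions on the other autosomes had a median of -0.45, or 0.731 times. The size of the ratios in the stretch was thus near that of strong control-higher regions elsewhere. Both sets had to pass the authors' p and a mean of at least 500, so this nearness is in part fixed.

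The end of the stretch was placed by the direction of the regions around it, so the counts on either side of it are in part fixed by that choice. In its last 500 kb, 1 ESC region was higher in knockout and 51 were higher in control cells, and in the 500 kb after its end 9 were higher in knockout and 1 in control cells. The last control-higher region, 31504701 to 31505950, had 175, 185 and 176 in knockout samples, against 367, 228 and 302 in control samples, in the authors' deposited table, and its values did not overlap. The next listed region, 31533451 to 31534350, had 401, 253 and 353 in knockout samples, against 214, 200 and 216 in control samples, in the authors' deposited table, all higher in the knockout. The first region of the stretch, 29865751 to 29866450, had 144, 63 and 96 in knockout samples, against 238, 199 and 160 in control samples, in the authors' deposited table.

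Among 2 Mb windows over the autosomes, 30000001 to 32000000 of chromosome 20 held 14 knockout-higher and 121 control-higher ESC regions and, by the control-higher count, ranked 1 of 1355 windows with a listed region, whose median was 2. By the run score, the next autosomal run at ESC lay on chromosome 1, 957301 to 6550250, with 140 control-higher regions of 159 over a longer span. The same chromosome 20 window ranked 5 by knockout-higher regions at PP, with 123 of them and 4 control-higher ones, and ranked 6 at GT, with 36 knockout-higher and 4 control-higher ones. At DE it held 36 knockout-higher and 24 control-higher regions and ranked 5 by its control-higher count. These ranks depend on how many accessible places a window holds, for which the wild-type clusters, taken up below, give a denominator. Per 100 cluster regions, the stretch held 79.5 knockout-higher regions at PP, against 107.8 over all chromosomes, and 25.9 at GT, against 32.8. Of control-higher regions it held 21.4 at DE, against 30.6, and 108.0 at ESC, against 37.2. By this measure only the ESC count of the stretch was above that over all chromosomes. The window was taken because it holds most of the stretch, so its ESC rank by control-higher count in part restates that choice.

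The 3 ESC regions with the highest authors' -log10 p all lay in the stretch and were wide regions of high signal. The first, 30194451 to 30196900, had 2191, 2133 and 1777 in knockout samples, against 3292, 3035 and 2475 in control samples, in the authors' deposited table, a log2 ratio of -0.53. The second, 31108601 to 31112350, had 1535, 1603 and 1168 in knockout samples, against 2124, 2400 and 1961 in control samples, in the authors' deposited table, a log2 ratio of -0.59. The third, 30429501 to 30434800, was at 5300 bp also the widest ESC region of the segment, with 1751, 2127 and 1849 in knockout samples, against 2985, 3010 and 2131 in control samples, in the authors' deposited table. In each of the 3 every knockout value lay below every control value, although in the third the highest knockout value and the lowest control value nearly met.

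The 5 knockout-higher regions of the stretch included 30606601 to 30607500, with 1026, 1265 and 1166 in knockout samples, against 834, 820 and 900 in control samples, in the authors' deposited table. Next to it, 30605451 to 30606250 went the other way at the same stage, with 953, 958 and 927 in knockout samples, against 1125, 1264 and 1217 in control samples, in the authors' deposited table. Both places lie in wild-type cluster 6, and neither pair of values overlapped, so neighbouring regions of the stretch could be listed in opposite directions. The largest ratio among the 5 belonged to 30955101 to 30955500, with 146, 58 and 89 in knockout samples, against 43, 37 and 24 in control samples, in the authors' deposited table, a log2 ratio of 1.47 on low values.

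The leading knockout-higher ESC regions lay outside the stretch. The region 33341851 to 33343100 had 376, 309 and 373 in knockout samples, against 174, 86 and 248 in control samples, in the authors' deposited table, a log2 ratio of 1.05. At 34359151 to 34360250 the values were 813, 1049 and 1111 in knockout samples, against 707, 692 and 656 in control samples, in the authors' deposited table, a log2 ratio of 0.53. In both regions every knockout value lay above every control value.

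At the later stages the stretch did not keep its ESC direction. Its listed regions were 26 higher in knockout and 24 higher in control at DE, and 29 knockout-higher and 3 control-higher at GT. At PE 14 were knockout-higher and 9 control-higher, and at PP 89 were knockout-higher and 3 control-higher. The knockout shares were 52.0%, 90.6%, 60.9% and 96.7% in that order, while the segment outside the stretch had 70.7%, 90.4%, 75% and 91.9%. Over all listed regions the shares were 62.8%, 73.0%, 43.9% and 88.7%. At DE, GT and PP most listed regions anywhere were thus knockout-higher, and the change in the stretch was in part general. DE was the stage at which the stretch still held a large share of control-higher regions, and its sample medians overlapped there: the knockout medians were 0.42, -0.09 and -0.03 and the control medians -0.08, -0.02 and 0.11. At PP they were apart in the upward direction, with knockout medians of 0.90, 0.62 and 0.73 and control medians of 0.02, 0.03 and -0.02.

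**Figure D3:**
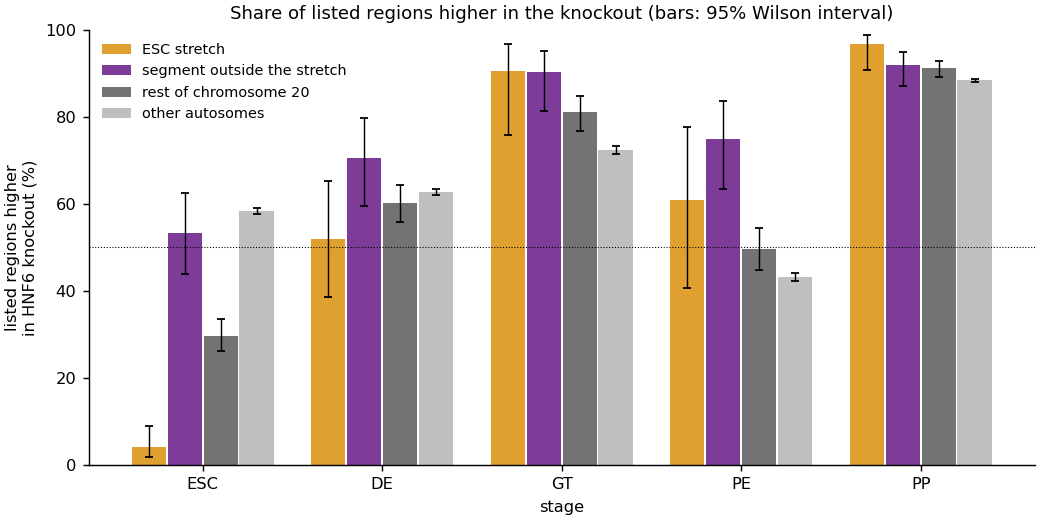
Share of listed regions higher in HNF6 knockout in percent (vertical axis) at the 5 stages (horizontal axis) for the ESC stretch, the segment outside it, the rest of chromosome 20 and the other autosomes; error bars are 95% Wilson intervals for counting error. At ESC the stretch stands at 3.97% and the segment outside it at 53.3%, while at PP all 4 areas lie above 88%.

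The same places were seldom listed at several stages. Listed regions that share at least 1 bp merged into 667 places in the segment, of which 551 were listed at 1 stage, 91 at 2, 24 at 3, 1 at 4 and 0 at 5. The 116 places listed at 2 or more stages were 17.4% of the segment's places, against 13.5% on the rest of chromosome 20. Of them 38 (32.8%) were higher in the knockout each time, 6 (5.17%) were higher in control each time and 72 (62.1%) changed direction between stages. Among 316 such places on the rest of chromosome 20 the shares were 37.0%, 8.86% and 54.1% in that order.

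ESC and PP shared the most places, 38, which was 17.3% of the segment's ESC places and 14.0% of its PP places. In 35 of the 38 the place was control-higher at ESC and knockout-higher at PP, and no place was control-higher at both. Within the stretch this held for all 30 shared places. The stretch was chosen for control-higher ESC regions, and 96.7% of its PP regions were knockout-higher, against 88.7% of all PP regions. Such pairings, here and in the counts by region below, thus largely follow from these shares. The rest of chromosome 20 had 71 shared places, of which 55 were control-higher at ESC and knockout-higher at PP. Counted by region, 33 of the 121 control-higher ESC regions of the stretch (27.3%) overlapped a PP region, each of them knockout-higher, and 13 overlapped a DE region, of which 6 were knockout-higher and 7 control-higher.

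The place listed at 4 stages, 31042401 to 31047000, lies in the stretch. At ESC its region had 2536, 2401 and 2018 in knockout samples, against 3231, 3353 and 2706 in control samples, in the authors' deposited table, a log2 ratio of -0.42. At DE the region there had 1010, 1209 and 1174 in knockout samples, against 896, 890 and 670 in control samples, in the authors' deposited table, a log2 ratio of 0.47. At both stages the genotypes were apart, in opposite directions. At PE the values were 1392, 892 and 967 in knockout samples, against 793, 938 and 795 in control samples, in the authors' deposited table, and they overlapped. At PP the place held a pair of knockout-higher regions, and the values of each overlapped too. The widest ESC region, 30429501 to 30434800, likewise contained a PP region, 30429901 to 30431300, with 695, 627 and 618 in knockout samples, against 274, 461 and 502 in control samples, in the authors' deposited table.

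At DE the leading knockout-higher regions lay after the stretch. The region 31823101 to 31825950 had 976, 686 and 703 in knockout samples, against 566, 412 and 532 in control samples, in the authors' deposited table, a log2 ratio of 0.65. The region 32857801 to 32859550 had 518, 290 and 375 in knockout samples, against 143, 208 and 263 in control samples, in the authors' deposited table, a log2 ratio of 0.94. In both the first knockout value was the highest of the 6. Among the control-higher DE regions, 32386301 to 32387800 had 210, 136 and 228 in knockout samples, against 301, 426 and 382 in control samples, in the authors' deposited table, a log2 ratio of -0.95, and a region overlapping it at PP was knockout-higher.

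At GT the leading region was 32576451 to 32578400, with 406, 424 and 613 in knockout samples, against 314, 189 and 221 in control samples, in the authors' deposited table, a log2 ratio of 0.99. It was followed by 34709501 to 34710650, with 339, 310 and 423 in knockout samples, against 143, 131 and 212 in control samples, in the authors' deposited table, a log2 ratio of 1.14. Neither region's values overlapped. Of the 3 leading control-higher GT regions, 2 lay in the stretch and 1, 35807301 to 35808550, lay near the far border of the segment with overlapping values.

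At PE the leading knockout-higher regions had ratios well under 2-fold. The region 32272001 to 32274200 had 1371, 1653 and 1616 in knockout samples, against 1143, 1200 and 906 in control samples, in the authors' deposited table, a log2 ratio of 0.51, and a region overlapping it was also knockout-higher at ESC. The region 32242351 to 32243450 had 957, 1021 and 866 in knockout samples, against 603, 556 and 711 in control samples, in the authors' deposited table, and was knockout-higher at PP too.

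Against the general direction, 1 place was control-higher at both late stages. At PE the region 32603951 to 32605700 had 407, 408 and 406 in knockout samples, against 602, 950 and 662 in control samples, in the authors' deposited table, a log2 ratio of -0.86. At PP the region 32604551 to 32605050 had 147, 162 and 157 in knockout samples, against 441, 358 and 426 in control samples, in the authors' deposited table, a log2 ratio of -1.39 and the highest authors' -log10 p of any PP region in the segment. At both stages the 3 knockout values were close to each other and below all control values. At GT an overlapping region, 32603501 to 32605700, was listed as knockout-higher, with 614, 391 and 492 in knockout samples, against 231, 442 and 347 in control samples, in the authors' deposited table, and there the values overlapped.

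A few kilobases further, 32610901 to 32613100 was among the 3 leading knockout-higher regions at PP, with 724, 712 and 377 in knockout samples, against 270, 328 and 287 in control samples, in the authors' deposited table, a log2 ratio of 1.03. It was knockout-higher at DE and control-higher at PE, where its values overlapped. The leading PP region of the segment's knockout list, 34673351 to 34674500, had 448, 594 and 552 in knockout samples, against 262, 227 and 231 in control samples, in the authors' deposited table, a log2 ratio of 1.14 with groups far apart. None of the 3 leading knockout-higher PP regions lay in the stretch.

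The wild-type cluster regions give a set of accessible places that does not depend on the lists. They were called in control cells, so places open in knockout cells alone cannot be among them, and overlaps with knockout-higher and control-higher lists are not on an equal footing. The ESC stretch held 112 of them, of which the knockout-higher ESC list overlapped 1 (0.893%), against 3.73% of all cluster regions. The control-higher ESC list overlapped 50 of the 112 (44.6%, 35.8% to 53.9%), against 5.38% of all. In the segment outside the stretch the knockout-higher list overlapped 7 of 122 (5.74%) and the control-higher list 8 (6.56%). On the rest of chromosome 20 the knockout-higher list overlapped 12 of 682 (1.76%) and the control-higher list 50 (7.33%). In the last 500 kb of the stretch 17 of 44 cluster regions (38.6%) were in the control-higher ESC list, and in the 500 kb after it 0 of 28, which allows a share of up to 10.7%. Among 424 windows of 2 Mb with at least 20 cluster regions, 30000001 to 32000000 ranked 1, with 49 of 138 (35.5%) in that list. The median over the windows was 4.51%. The stretch was chosen for regions of that same list, and the window for holding most of it. Their high overlap with the control-higher ESC list and this rank thus restate that choice in part.

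The stretch's overlap was not limited to 1 kind of wild-type region. It was 14 of 27 for cluster 1 (51.9%), 9 of 16 for cluster 6 (56.3%), 23 of 46 for cluster 7 and 3 of 12 for cluster 3. On the rest of chromosome 20 it was 20.8% for cluster 1, 13.3% for cluster 6, 19.8% for cluster 7 and 3.03% for cluster 3. The segment was rich in cluster 7, with 77 of its 234 cluster regions (32.9%) against 13.3% on the rest of chromosome 20, and held few regions of clusters 4 and 8, with 9 each. The labels do not say which accessibility course a cluster stands for.

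Over the whole segment, the knockout-higher ESC list overlapped 8 of 234 cluster regions (3.42%) and the control-higher one 58 (24.8%). At each later stage the overlap was larger for the knockout-higher list and smaller for the control-higher one. At PP the knockout-higher list overlapped 45 of 234 (19.2%), against 11.1% of all cluster regions, and the control-higher list 0, which allows a share of up to 1.28% by 3 counts of 234 and up to 1.62% by the Wilson interval, against 2.47% of all. At PE the knockout-higher list overlapped 19 (8.12%, against 3.97% of all) and the control-higher list 1 (0.427%, against 6.44% of all). On the rest of chromosome 20 the control-higher PE list overlapped 59 of 682 (8.65%). At GT the knockout-higher list overlapped 18 (7.69%, against 1.86% of all), of which 14 lay outside the stretch, and the control-higher list 3 (1.28%, against 2.49%). At DE the knockout-higher list overlapped 13 (5.56%, against 5.69%) and the control-higher list 4 (1.71%, against 4.99%). By any of the 10 lists, 133 of the 234 cluster regions (56.8%) were overlapped, against 41.1% on the rest of chromosome 20 and 38.4% of all.

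**Figure D4:**
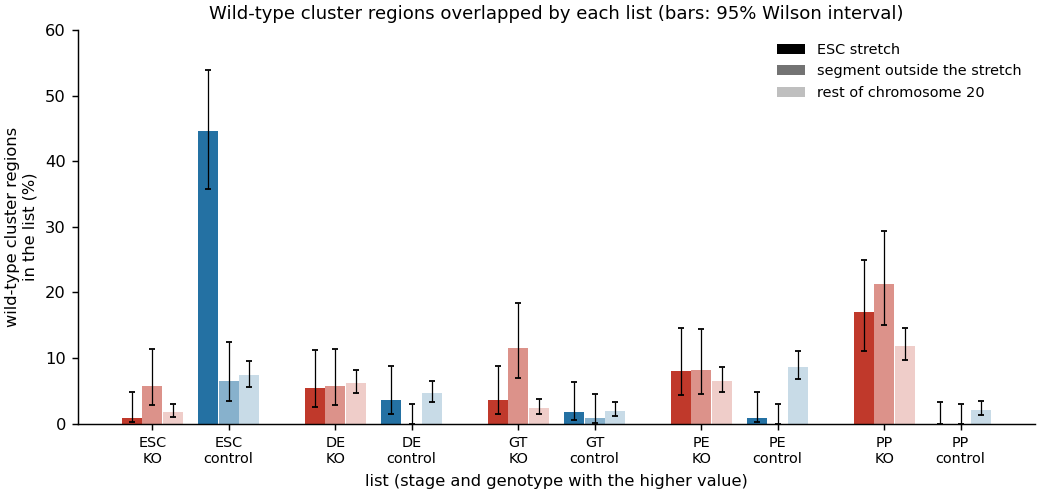
Share of wild-type cluster regions overlapped by each of the 10 lists in percent (vertical axis), for the ESC stretch (darkest bars), the segment outside it (middle) and the rest of chromosome 20 (lightest); red bars are lists higher in HNF6 knockout, blue bars lists higher in control, and error bars are 95% Wilson intervals for counting error. The control-higher ESC list in the stretch, at 44.6%, is the tallest bar.

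Summed values take in the width and strength of the regions. At ESC the stretch's listed regions added up to 1.09%, 1.07% and 0.926% of the sum over the other autosomes' listed regions in the 3 knockout values and to 1.58%, 1.57% and 1.45% in the 3 control values, a log2 ratio of -0.58 with genotypes apart. The segment outside the stretch came to 0.670%, 0.674% and 0.605% in knockout and 0.682%, 0.671% and 0.678% in control, which overlap. The stretch was chosen for its direction, so its ESC difference restates that choice. At PE the genotypes were further apart outside it, with 0.713%, 0.724% and 0.685% in knockout, against 0.586%, 0.594% and 0.513% in control.

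Divided by the rest of chromosome 20 in place of the other autosomes, the segment's sums changed little between genotypes at most stages. They were 62.6% ± 1.07 in knockout and 63.8% ± 0.825 in control at ESC (SD over 3 values each), 36.9% ± 0.776 in knockout and 37.0% ± 1.39 in control at DE, and 48.7% ± 0.698 in knockout and 48.7% ± 1.45 in control at GT. At PE they were 26.2% ± 0.401 in knockout and 22.7% ± 0.733 in control, and at PP 42.5% ± 0.471 in knockout and 44.1% ± 0.542 in control, both without overlap. At ESC the near-equal sums held opposite differences on this scale. The stretch came to 38.3% ± 0.927 in knockout and 44.2% ± 1.26 in control, a log2 ratio of -0.21, and the segment outside it to 24.3% ± 0.469 in knockout and 19.6% ± 0.438 in control, a log2 ratio of 0.31. Neither pair overlapped. These sums hold only regions listed at each stage, so their levels cannot be compared across stages. The rest of chromosome 20 leaned by genotype: 70.3% of its regions were control-higher at ESC and 91.3% knockout-higher at PP. A leaning divisor moves ratios the other way, so these are not plain genotype differences. The other autosomes leaned too, 58.3% knockout-higher at ESC and 88.5% at PP. Divided by them, the segment outside the stretch had -0.059 at ESC and the segment 0.096 at PP, both with overlapping genotypes. The stretch's ESC ratio kept its sign, at -0.58.

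**Figure D5:**
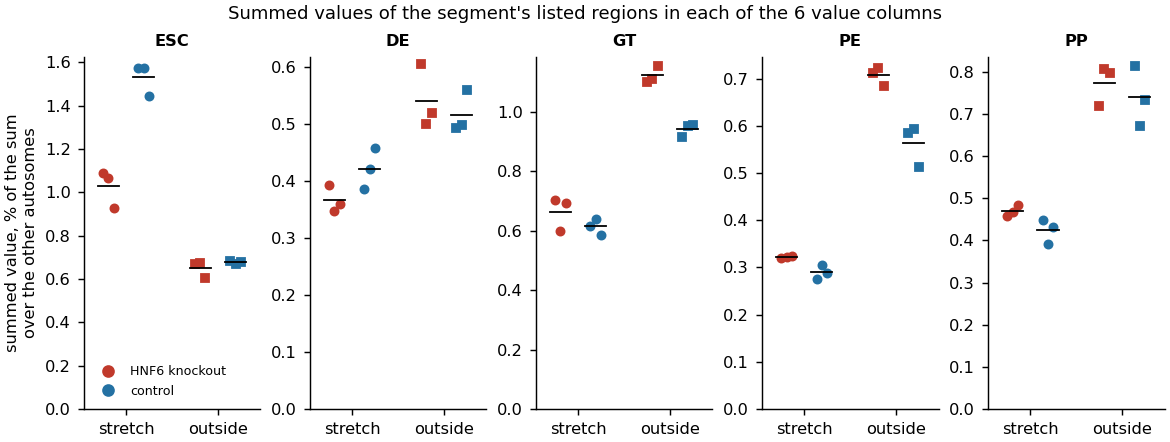
Summed values of the listed regions of the ESC stretch (circles) and of the segment outside it (squares) as a percentage of the sum over the other autosomes (vertical axis), 1 panel per stage; each point is 1 of the 3 HNF6 knockout values (red, left) or 3 control values (blue, right), and lines are means. At ESC the stretch's knockout points lie between 0.926% and 1.09% and its control points between 1.45% and 1.58%.

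The borders of the segment fall in stretches with few listed regions on one side. The first region inside was 29525101 to 29525450, listed at DE with 24, 12 and 14 in knockout samples, against 110, 66 and 96 in control samples, in the authors' deposited table, and the nearest one before the border was 26257851 to 26258300, listed at ESC with 108, 108 and 75 in knockout samples, against 42, 27 and 36 in control samples, in the authors' deposited table. No listed region lay between them. The last region inside was 35993001 to 35993450 and the nearest one beyond was 36007001 to 36008100, both knockout-higher at PP, with log2 ratios of 1.36 and 0.74. The same direction thus stood on both sides of the far border.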

How the data were processed

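The data are ATAC-seq region lists of 30 samples in 10 groups of 3. Per the submitters' processing notes, Bowtie2, MACS2 and the hg19 build were used, with no versions or roles given; no source used here names the caller of differential regions, any read shift or any scaling of libraries. The authors deposited, for each genotype and stage, 1 list of differential regions with a log2 ratio, 2 sets of 3 whole-number values and a -log10 p of at least 5 per region. The 9 deposited cluster lists hold wild-type positions (500 bp each) and other descriptive columns without measurements. The deposited log2 ratio runs control over knockout and was recomputed from the values, with 1 added to each mean, and its sign turned to knockout over control. The first set of values was read as knockout and the second as control, because the first was higher in each knockout list and the second in each control list; this rests on the names of the lists. Value columns carry no replicate numbers. No other columns of per-sample values were set aside (0).

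A region belonged to the segment by its middle. Counts, medians, Wilson intervals, overlaps of at least 1 bp, merged places and summed values were computed with Python 3.11.15, numpy 2.4.6, pandas 2.3.3 and scipy 1.17.1, and figures drawn with matplotlib 3.10.9. Overlap and run-finding code was tested on simulated data. No hypothesis test was run. Regions named are the 3 with the highest authors' -log10 p in each list, those beside each border, the place listed at 4 or more stages and the widest region per stage, of which the text gives a selection; the first, last, following and knockout-higher regions of the ESC stretch were added after their values were seen. The members, the comparisons and the stretch were chosen with earlier results of these data known. RefSeq's GRCh38.p14 table gave gene names and order only.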

Additional observations from a re-analysis of the deposited data

Results flagged for a closer look

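The segment's genotype difference had opposite signs at ESC and at each later stage, with every knockout value's median on 1 side of the control values at each of these stages. The differences between stages were not tested. For the segment, the mean log2 difference of knockout over control at ESC minus that at the later stage was -0.91 for DE, -1.17 for GT, -0.928 for PE and -1.33 for PP. For the ESC stretch it was -1.16 for GT, -0.879 for PE and -1.32 for PP; DE is not among these because its values overlapped. The stretch was defined from the ESC direction, so its ESC side is fixed by that choice. In the segment outside the stretch the ESC difference was 0.27 ± 0.05 (SE), the same sign as its later stages. That sign is in part fixed too, since taking out the stretch takes out control-higher ESC regions. It came from 56 knockout-higher and 49 control-higher regions, whose sums relative to the other autosomes overlapped between genotypes. The rest of chromosome 20 also turned, with -0.54 at ESC against 0.47 at DE, 0.84 at GT and 1.01 at PP. At each stage different regions entered, since each list holds only the regions that differed there.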

How the results depend on the processing

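Of 216 alternative settings, 173 stayed within the spread or interval of the reported value, among them all 96 that leave out 1 value. The summed ratios at ESC, DE and GT, whose genotypes overlap, lie near 0 and have no settled direction: their sign changed in 9 settings, 5 of them leave-one-out. The medians without 1 value spanned -0.56 to -0.45 (ESC), 0.32 to 0.58 (DE), 0.57 to 0.76 (GT), 0.43 to 0.47 (PE) and 0.81 to 0.91 (PP). The lists hold only regions past the authors' threshold, so the knockout shares, recomputed from the other 5 values, say little about stability.

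Among values with genotypes apart or shares off 50%, 3 turned round. With ratios of at least 2-fold, the PE knockout share was 44.4% and its median -1.03. Divided by the other autosomes, the segment's summed PP ratio was 0.096 in place of -0.054.

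With -log10 p of at least 10 the knockout share was 11.1% at ESC, 80.0% at DE and 100% at GT (3 of 3), the GT median 0.99, and the overlapped share of cluster regions 0% (ESC knockout), 11.5% (ESC control), 0.855% (DE knockout), 0% (DE control), 0.855% (GT knockout), 0% (GT control), 2.14% (PE knockout), 0% (PE control) and 5.98% (PP knockout). With ratios of at least 2-fold the share was 46.3% at ESC and 96.0% at GT, and the medians -1.01 at ESC, 1.03 at DE, 1.17 at GT and 1.23 at PP. The first 3 Mb gave 16.2% at ESC and 97.4% at PP, and the remainder 44.6% and 88.9% with a PP median of 0.99. With 1 region per 100 kb the ESC share was 39.3% and the PP median 0.98; weighted by width the PP median was 0.77. With 50% or more of a cluster region covered, the PP knockout overlap was 13.2%. Divided by the other autosomes the summed log2 ratio was -0.40 at ESC, 0.20 at GT (reported as -0.00071) and 0.27 at PE; averaged over regions it was 0.0064 at ESC (reported as -0.026), 0.34 at PE and -0.10 at PP. With middles within 500 bp, 67 places were listed at several stages in place of 116. The control share of the stretch, all alternatives to which were chosen after seeing the data, was 71.6% and 75% with run weights of 1 and 2, 100% at -log10 p of at least 10 (32 of 32), 87.5% at 2-fold or more (14 of 16) and 100% with 1 region per 100 kb. The causes were not tested. No paired analysis was possible because the value columns carry no replicate numbers and the results come from no test.

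Limits: the lists hold only regions past the authors' threshold, unlisted regions have no values, and depth and scaling are unknown. The deposited ratios and values come from 3 columns per genotype that cannot be tied to single samples.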

Other observations

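The width of the segment's listed regions differed with direction, and the order turned between stages, as it did over all chromosomes. At ESC the median width was 850 bp for knockout-higher and 1250 bp for control-higher regions, and at PP it was 850 bp for knockout-higher and 500 bp for control-higher ones. Within the ESC stretch the widths were 600 bp for the 5 knockout-higher and 1350 bp for the 121 control-higher ESC regions. Over all chromosomes they were 750 bp for knockout-higher and 900 bp for control-higher regions at ESC, and 700 bp and 600 bp in that order at PP.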
